A study of Mus musculus with 6 samples.

Results

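The genes described here are the cadherins, filament protein and transcription factors by which an epithelial-mesenchymal transition is usually scored: Cdh1, Cdh2, Epcam, Vim, Snai1, Snai2, Zeb1, Zeb2, Twist1 and Twist2. They were chosen by name, 10 of the 19938 genes that the array annotation gives a symbol of their own, and each was read by 1 transcript cluster, the set of probes that Affymetrix summarizes into a single value. Levels were measured in MLE15, a mouse lung epithelial line. It comes from tumors of transgenic mice in which the human surfactant protein C promoter, active in alveolar type II cells, drives large T antigen of simian virus 40. In 3 of the lines compared, lentivirus carried a mix of 3 shRNAs against Nkx2-1 in the vector pLKO.1 (Nkx2-1-shRNA). In the other 3 it carried pLKO.1 without an insert, which the labels name as the non-silencing control, so no unrelated shRNA was part of the comparison. Per the methods, the lines of each group were transduced independently, selected with puromycin and kept as stable lines, while the labels give a time of 48 h, and the arrays do not settle which of these the time refers to. Each line was hybridised once to a Mouse Gene 1.0 ST array, so n is 3 lines per group throughout, and the number of arrays limits the precision.

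In an epithelial-mesenchymal transition, epithelial cells loosen their E-cadherin junctions and take on a migratory form. The zinc finger factors of the Snail and ZEB families and the helix-loop-helix Twist factors drive it, in part by binding E-box sequences and silencing the E-cadherin gene. In the classical cadherin switch E-cadherin is lost as N-cadherin appears, and vimentin filaments are added to the keratin network. The miR-200 family holds the ZEB factors down in epithelial cells, including those of the lung.

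Levels are log2 values after robust multi-array normalization. Differences are Nkx2-1-shRNA minus empty vector, and adjusted p are Benjamini-Hochberg values of limma's moderated test over all 35557 transcript clusters, with a gene called at an adjusted p under 0.05. A level of 4.35, the 95th percentile of 1242 transcript clusters of odorant, vomeronasal and taste receptors, served as the background limit. Correlations between arrays were 0.991 to 0.994 within groups and 0.979 to 0.983 between them, and no array stood apart. Nkx2-1 itself read 8.61, 8.61 and 8.59 in the empty vector lines and 7.91, 7.98 and 7.83 in the Nkx2-1-shRNA lines. It fell from 8.60 ± 0.014 to 7.91 ± 0.073 (SD, n = 3; log2 difference −0.69, limma adjusted p = 0.00155). Sftpc, the surfactant protein C gene, was at least 10.4-fold lower (limma adjusted p = 2.0e-04), its Nkx2-1-shRNA level being below the limit.

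The 10 genes did not move together. Cdh2, Zeb2 and Snai1 rose, Vim fell, and the other 6 were not called. The 3 that rose compare with 7.61% of all transcript clusters called higher and the 1 that fell with 9.24% called lower. Among the 19938 genes alone, the shares were 10.7% and 9.88%. Those shares count genes above background or not, 13561 of the 19938 being above it in at least 1 group. Lists made up mostly of expressed genes differ from them in that respect. At the study's threshold, an adjusted p under 0.0005 and a log2 difference beyond 0.6, Vim was the single member called, where 1.26% of all transcript clusters passed. That stricter call was lost without any 1 line (adjusted p 5.6e-04 without empty vector line 3, 8.8e-04 without line 2 and 0.00133 without line 1, and 0.00149, 0.00154 and 0.00147 without Nkx2-1-shRNA lines 1, 2 and 3) and by the methods' t-test (0.00609). The groups did not overlap for 6 of the 10 genes, Snai2 among them though below background, against 34.9% of all transcript clusters, expressed or not. The study showed epithelial and mesenchymal markers of these same lines, so these directions are not independent of the reason the genes were chosen.

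**Figure D1:**
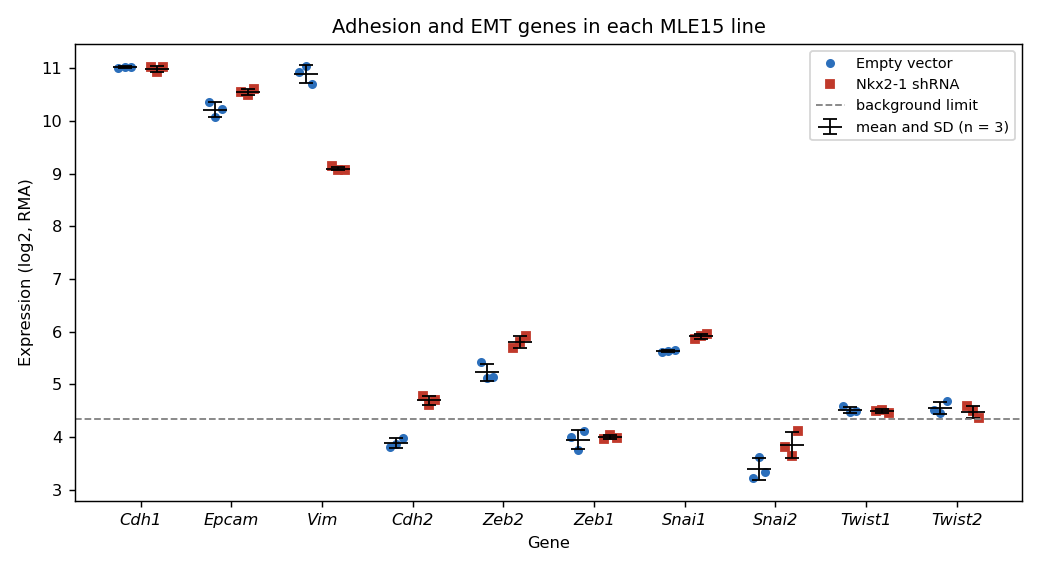
Level of each of the 10 genes (log2, vertical axis). Circles in blue are the 3 empty vector lines, squares in red the 3 Nkx2-1-shRNA lines, each with mean and SD, and a dashed line marks the background limit (4.35). The groups are apart for Vim, Cdh2, Zeb2, Snai1, Snai2 and Epcam, and the Cdh1 points lie on top of each other near 11.0.

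Cdh1 encodes E-cadherin, the adhesion molecule of epithelial junctions. Its transcript cluster, 10575052, read 11.00, 11.03 and 11.03 in the empty vector lines and 11.02, 10.93 and 11.03 in the Nkx2-1-shRNA lines. The groups overlapped, and the lowest value was that of Nkx2-1-shRNA line 2. The log2 difference was −0.032 (SE 0.073, limma adjusted p = 0.830), and its 95% interval ran from −0.21 to 0.14, or from 86.7% to 110% of the control level. A loss or gain larger than that lies outside the interval.

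Cdh2 encodes N-cadherin, the cadherin of neural and mesenchymal cells. Transcript cluster 10457644 read 3.80, 3.88 and 3.98 in the empty vector lines, all below the background limit, and 4.78, 4.61 and 4.70 in the Nkx2-1-shRNA lines, all above it. The lowest Nkx2-1-shRNA line exceeded the highest control line by 0.63. Cdh2 rose by 0.81 on the log2 scale (SE 0.087, 95% interval 0.61 to 1.02, limma adjusted p = 0.00143). Because the control level was not above background, the change is stated as at least 1.27-fold higher. The 3 shRNA lines stood 0.89, 0.72 and 0.82 above the control mean. N-cadherin transcript was thus above the limit in the Nkx2-1-shRNA lines alone. Their mean lay only 0.35 over it, so the level stayed near background. E-cadherin transcript did not differ beyond the spread between lines.

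Epcam encodes a homophilic adhesion molecule of simple epithelia. Transcript cluster 10447383 read 10.36, 10.07 and 10.23 in the empty vector lines and 10.55, 10.49 and 10.61 in the Nkx2-1-shRNA lines. Every shRNA line lay above every control line, with a gap of 0.14. The log2 difference of 0.34 (SE 0.097, 95% interval 0.11 to 0.57) had a limma adjusted p of 0.0588 and was not called, but it passed without empty vector line 1 (0.40, adjusted p = 0.0483).

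**Figure D2:**
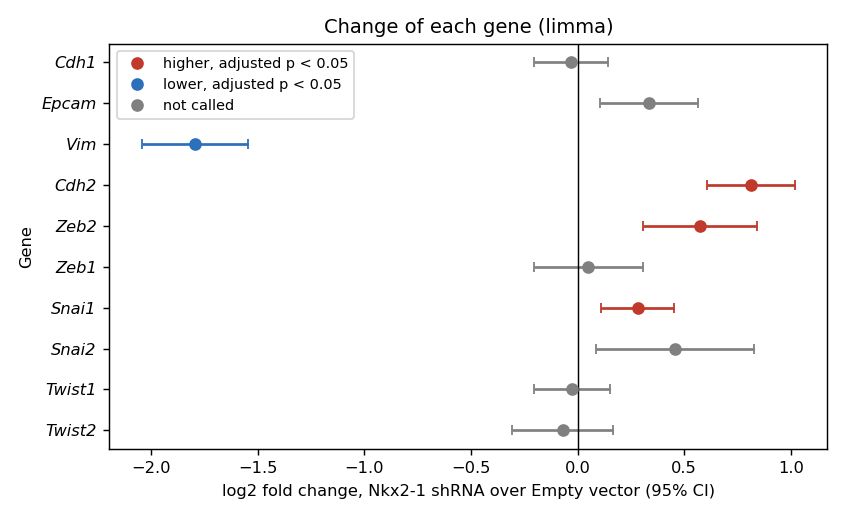
Log2 difference, Nkx2-1-shRNA minus empty vector (horizontal axis), of the 10 genes with 95% intervals of the limma fit. Vim lies at −1.80, Cdh2, Zeb2 and Snai1 lie above 0, and the intervals of Zeb1, Twist1, Twist2 and Cdh1 span 0.

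Vim encodes vimentin, the intermediate filament protein of mesenchymal cells that many epithelial cell lines also make in culture. Transcript cluster 10469322 read 10.93, 11.04 and 10.70 in the empty vector lines and 9.14, 9.08 and 9.07 in the Nkx2-1-shRNA lines. The groups were separated by 1.56, and the shRNA lines lay within 0.062 of each other. Vim fell by 1.80 on the log2 scale (SE 0.10, 95% interval −2.04 to −1.55, limma adjusted p = 1.4e-04), to 28.8% of the control level. It ranked 188th of 19938 genes by absolute difference. In bulk RNA, fewer cells with the transcript and less transcript per cell cannot be told apart.

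Snai1 encodes Snail, the zinc finger repressor first tied to E-cadherin loss. Transcript cluster 10478884 read 5.61, 5.63 and 5.66 in the empty vector lines and 5.87, 5.92 and 5.96 in the Nkx2-1-shRNA lines. The groups did not overlap and each was tight, with a gap of 0.21 between them. Snai1 rose by 0.28 on the log2 scale (SE 0.072, 95% interval 0.11 to 0.45, limma adjusted p = 0.0404), to 122% of the control level. The call was lost without any 1 of the lines: the adjusted p was 0.0988 without Nkx2-1-shRNA line 1, 0.108 without line 2 and 0.129 without line 3, and 0.102, 0.0993 and 0.0635 without empty vector lines 1, 2 and 3.

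Snai2, which encodes the related repressor Slug, was below the background limit on all 6 arrays. Transcript cluster 10433776 read 3.22, 3.63 and 3.34 in the empty vector lines and 3.80, 3.64 and 4.11 in the Nkx2-1-shRNA lines. The groups were apart by only 0.012, and the limma adjusted p was 0.0996. Since both groups were below background, the values set no fold between them.

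Zeb2 encodes a zinc finger and homeodomain repressor of E-cadherin. Transcript cluster 10482448 read 5.42, 5.12 and 5.14 in the empty vector lines and 5.69, 5.81 and 5.91 in the Nkx2-1-shRNA lines. All shRNA lines lay above all control lines, by at least 0.27, and empty vector line 1 was the control nearest to them. Zeb2 rose by 0.58 on the log2 scale (SE 0.11, 95% interval 0.31 to 0.84, limma adjusted p = 0.0154), to 149% of the control level. The adjusted p was 0.0532 without Nkx2-1-shRNA line 2, 0.0553 without line 3 and 0.0505 without empty vector line 2, and the methods' t-test gave 0.0607.

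Zeb1, the other member of that family, was below the background limit on every array. Transcript cluster 10453678 read 3.99, 3.75 and 4.11 in the empty vector lines and 3.97, 4.04 and 3.98 in the Nkx2-1-shRNA lines. The groups overlapped (limma adjusted p = 0.821).

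Twist1 and Twist2 encode helix-loop-helix factors of mesoderm and neural crest, and their values lay just above the limit. Twist1, transcript cluster 10395320, read 4.58, 4.48 and 4.49 in the empty vector lines and 4.50, 4.52 and 4.46 in the Nkx2-1-shRNA lines. Twist2, transcript cluster 10348632, read 4.51, 4.46 and 4.68 against 4.59, 4.48 and 4.36. Both groups overlapped for both genes. The log2 difference was −0.026 for Twist1 (95% interval −0.20 to 0.15, limma adjusted p = 0.868) and −0.070 for Twist2 (−0.31 to 0.17, limma adjusted p = 0.714), and the sign of each turned under median centring of the arrays.

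The 3 genes that rose did so by differing amounts in the same lines. Nkx2-1-shRNA line 3 stood highest for Zeb2 (0.68 above the control mean) and Snai1 (0.33), and line 1 stood lowest for both (0.46 and 0.23). For Cdh2 the order was not the same, line 1 standing highest. The Vim deviations of lines 1, 2 and 3 were −1.75, −1.81 and −1.82. These orders rest on 1 array per line.

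The E-box that SNAI and ZEB factors bind, CACCTG on one strand and CAGGTG on the other, was looked for in RefSeq promoter windows of 300 bases, 250 before to 50 after the transcription start (GRCm38.p6). The table held windows for 6 of the 10 genes, Vim, Zeb2, Snai1, Twist1, Twist2 and Epcam. The 6 letters were present in those of Snai1 and Epcam, 2 of 6 genes, against 22.6% of the 27025 genes with a window. The bases before each start are shown because these are the members whose windows hold the letters, Epcam more than once. Capitals mark the E-boxes, at −126 from the start in Snai1 (chr2:167537945-167538194, plus strand) and at −187 and −19 in Epcam (chr17:87635729-87635978, plus strand).
Snai1: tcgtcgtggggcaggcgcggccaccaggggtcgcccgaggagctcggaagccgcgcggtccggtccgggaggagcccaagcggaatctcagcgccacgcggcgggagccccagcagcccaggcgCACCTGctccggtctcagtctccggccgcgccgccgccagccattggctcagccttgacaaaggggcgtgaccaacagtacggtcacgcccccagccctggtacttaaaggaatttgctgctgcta
Epcam: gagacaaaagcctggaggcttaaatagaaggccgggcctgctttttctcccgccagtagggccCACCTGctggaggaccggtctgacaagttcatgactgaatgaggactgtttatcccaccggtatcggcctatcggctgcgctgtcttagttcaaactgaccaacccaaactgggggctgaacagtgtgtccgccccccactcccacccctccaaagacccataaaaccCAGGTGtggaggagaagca
Of all windows, 2.88% held at least 2 such E-boxes. A match describes these letters and does not show binding, and the arrays did not measure binding.

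The miR-200 family is the best known brake on Zeb1 and Zeb2, and its mature 3p strands are shown because their seeds (bases 2 to 8, in capitals) sort the family into the AAUACUG and AACACUG groups. The sequences are from RefSeq, GRCm38.p6, and all 5 lie on the minus strand: miR-200c-3p at chr6:124718324-124718346, miR-200b-3p at chr4:156055685-156055706, miR-429-3p at chr4:156053916-156053937, miR-141-3p at chr6:124717917-124717938 and miR-200a-3p at chr4:156054911-156054932.
miR-200c-3p: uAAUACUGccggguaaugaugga
miR-200b-3p: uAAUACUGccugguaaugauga
miR-429-3p: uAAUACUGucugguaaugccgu
miR-141-3p: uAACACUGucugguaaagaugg
miR-200a-3p: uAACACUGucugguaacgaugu
The mRNA arrays carry transcript clusters for the precursors, which are not a measure of the mature strands. Of the 4 precursors with a transcript cluster of their own, none was called. Mir200a read 5.52 in the empty vector lines and 5.83 in the Nkx2-1-shRNA lines (log2 difference 0.31, limma adjusted p = 0.0574). Mir200c (3.79 and 3.67) and Mir141 were below the background limit in both groups. The mature miRNAs were measured by the study on other arrays, not analysed here.

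Around the cadherins, the other classical cadherins moved little. Of 16 genes, 11 were below the background limit in both groups, none was called higher and 1 was called lower. These shares, 0% and 6.25%, compare with 10.7% and 9.88% of all genes. The median log2 difference was 0.016 against −0.0070 over all 19938 genes. The one called was Cdh24, 6.39 in the empty vector lines and 6.03 in the Nkx2-1-shRNA lines (−0.36, limma adjusted p = 0.0205), and it was not called in 4 of the 6 fits that each left out 1 line (Nkx2-1-shRNA 1 and 3, empty vector 1 and 2). Among 12 genes of the catenins and their junction partners, 2 were higher and 1 lower (16.7% and 8.33%, beside 10.7% and 9.88% of all genes; median 0.16), so the share of calls was near the background. Ctnnd1, the p120-catenin that keeps cadherins at the membrane, fell from 10.35 to 9.82 (−0.53, limma adjusted p = 0.0321). Afdn, an actin linker at adherens junctions, rose by 0.43 (limma adjusted p = 0.0196) and Jup, or plakoglobin, by 0.27 (0.0432). The Jup call was lost without any 1 line, the Ctnnd1 call without any but empty vector line 3, and the Afdn call without Nkx2-1-shRNA lines 1 or 3 or empty vector lines 2 or 3. Ctnnb1, which encodes beta-catenin, had a difference of −0.047 (0.819).

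Besides the members, 13 further genes linked to the repression of Cdh1, whether or not through its E-boxes, were measured. The list pools repressors with the Id genes, so its counts are not counts of repressors alone. Of the 13 genes, 5 were higher and 2 lower (38.5% and 15.4%, beside 10.7% and 9.88% of all genes, median 0.024). Id2, Id3 and Id1 encode inhibitors that dimerise with helix-loop-helix factors and keep them off DNA. Id2 rose from 8.66 to 9.76 (1.10, limma adjusted p = 6.2e-04) and Id3 by 1.07 (0.00822), and both held without any 1 line. Id1 rose by 0.45 (0.0285) but was not called in 4 of the 6 fits without 1 line, namely Nkx2-1-shRNA 1 and 2 and empty vector 1 and 3. Id4, the fourth gene of that family, went the other way, falling from 7.09 to 6.74 (−0.35, 0.0348), a call lost without any 1 line but empty vector line 3. Foxq1, a forkhead factor, rose by 0.68 (limma adjusted p = 0.00547) and Tcf12, a partner of the Twist factors, by 0.42 (0.0116). Snai3, the third Snail gene, was called lower by 0.41 (0.0397), opposite in sign to Snai1, a call lost without Nkx2-1-shRNA lines 1 or 2 or empty vector lines 1 or 2.

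All 16 corepressors and chromatin partners of the SNAI and ZEB factors that were measured were above background. Of these, 2 were higher and 4 lower (12.5% and 25%, beside 10.7% and 9.88% of all genes, median −0.039). Hdac1, a histone deacetylase, fell by 0.57 (limma adjusted p = 0.00339), Smarca4, the ATPase BRG1, fell by 0.56 (0.00367) and Hdac2 fell by 0.50 (0.0159). Wtip, a LIM protein, rose by 0.56 (0.00669) and Ctbp1, a corepressor that binds ZEB factors, by 0.50 (0.0146). Without Nkx2-1-shRNA line 1, and likewise without line 2, the list had 1 gene higher and 2 lower.

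Snail protein is short-lived, and 17 genes of its phosphorylation and turnover were measured. Of these, 5 were higher and 2 lower (29.4% and 11.8%, beside 10.7% and 9.88% of all genes), with a median of 0.24. All 17 were above background, while the shares of all genes include genes that were not. Usp27x, which encodes a deubiquitinase of Snail, rose from 5.73 to 7.43 (1.70, limma adjusted p = 1.4e-04). Fbxl5, which encodes a ubiquitin ligase subunit acting on Snail and on iron regulatory protein, rose from 7.96 to 9.12 (1.16, 2.0e-04). Ctdsp2, a small phosphatase gene, rose by 0.49 (0.00670), whereas Mdm2, a ubiquitin ligase gene best known for p53, fell by 0.76 (0.00105). Prkd1, a kinase gene below background in the Nkx2-1-shRNA lines, was at least 1.19-fold lower (0.00786). The enzymes named thus include both stabilisers and ubiquitin ligases, and Snail protein was not measured here. Without Nkx2-1-shRNA line 1, 3 genes of the list were higher.

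**Figure D3:**
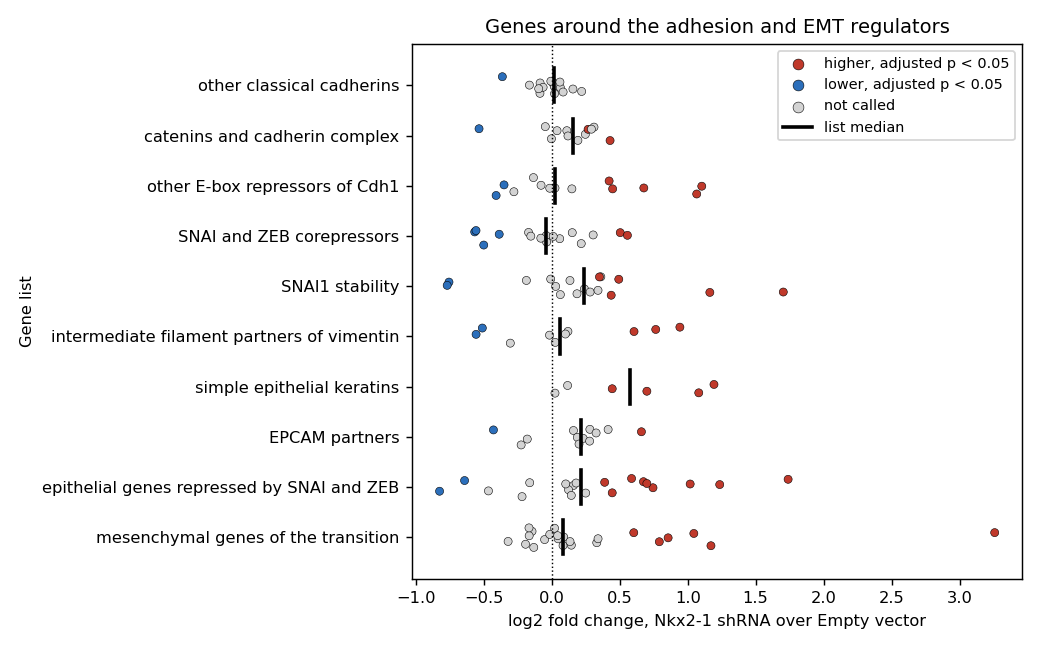
Log2 difference, Nkx2-1-shRNA minus empty vector (horizontal axis), of each measured gene in the 10 lists around the members; each point is a gene and each black bar the list's median. Medians lie between −0.039 (corepressors) and 0.57 (simple epithelial keratins).

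Vimentin was the single called member that fell, and its filament neighbours were mixed. Of 10 intermediate filament partners, 3 rose and 2 fell (30% and 20%, beside 10.7% and 9.88% of all genes, median 0.063). Plec, the plectin crosslinker, rose by 0.94 (limma adjusted p = 9.2e-04), Lmna, the nuclear lamin gene, by 0.76 (0.00138) and Des, the muscle filament desmin, by 0.61 (0.0193). Dst, the dystonin crosslinker, fell by 0.56 (0.0134) and Nes, the nestin gene, by 0.51 (0.00962). The Des call was lost without Nkx2-1-shRNA line 1 and without line 2.

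The simple epithelial keratins, the filament genes of epithelium, ran the other way from Vim. Of 6, 4 were higher and none was lower (66.7% and 0%, beside 10.7% and 9.88% of all genes), with a median of 0.57. Krt19 rose from 10.11 to 11.31 (1.19, limma adjusted p = 0.00291). Krt20, an intestinal keratin not above background in the control lines, was at least 1.63-fold higher (0.00246). Krt7 rose by 0.70 (0.0223) and Krt18 by 0.44 (0.00825), while Krt8 differed by 0.12 and was not called. The Krt7 call was lost in 4 of the 6 fits without 1 line (Nkx2-1-shRNA 1 and 2, empty vector 1 and 3).

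Of 12 genes whose products bind or process EPCAM, 1 was called higher and 1 lower (8.33% each, beside 10.7% and 9.88% of all genes; median 0.22). The groups did not overlap for 11 of the 12, where 34.9% of all transcript clusters, expressed or not, did not. Over the 176 genes of all lists together, members left out, the groups did not overlap for 97. Of the 11, Cldn7 was below background in both groups. Tspan8, a tetraspanin gene, rose by 0.66 (limma adjusted p = 0.00446). Bace1, a secretase gene, fell by 0.43 (0.0176), a call lost without Nkx2-1-shRNA line 2 and without line 3.

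Among 20 measured epithelial genes that SNAI or ZEB factors are known to repress, 9 were higher and 2 lower, and the median was 0.21. These shares, 45% and 10%, compare with 10.7% and 9.88% of all genes. Cldn4, a tight junction claudin, rose from 6.91 to 8.65 (1.74, limma adjusted p = 6.1e-04). Dsp, desmoplakin, rose by 1.24 (0.00165), Lama3, a laminin chain of epithelial basement membrane, by 1.02 (4.8e-04), and Ocln, occludin, by 0.74 (0.00590). Muc1, a membrane mucin, fell by 0.83 (0.00294).

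Of 23 genes that accompany the transition, most but not all of them mesenchymal, 5 were below background in both groups. Among the 23, 6 were higher and none lower (median 0.083). These shares, 26.1% and 0%, compare with 10.7% and 9.88% of all genes. Tgfbi, a matrix protein gene induced by TGF-beta, rose from 5.84 to 9.10 (3.26, limma adjusted p = 2.8e-05). Fn1, fibronectin, rose by 1.17 (0.00130) and Tnc, tenascin C, by 1.05 (0.00376), with 1 of 3 control lines above the background limit for Tnc (means 4.16 and 5.21), so that the size of its rise is uncertain. Mmp14, a membrane metalloproteinase gene, rose by 0.86 (0.00259) and Foxc1, a forkhead factor gene, by 0.79 (0.00109). Itgb6, an integrin gene below background in the control lines, was at least 1.31-fold higher (0.0118). Other mesenchymal genes above background were not called, among them Col1a1 (0.088), Col1a2 (0.047), Col3a1 (0.043), Thy1 (0.13), Sparc (−0.19) and Axl (−0.32). Genes of both lists were thus called higher in the same lines in which Vim was lower and Cdh1 did not differ beyond the spread.

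Of 12 MLE15 identity markers, all were above the background limit in at least 1 group, and 3 were called higher and 6 lower. The 6 include Nkx2-1, the target of the shRNAs, and Sftpc, both already read above as checks of the labels. These shares, 25% and 50%, compare with 10.7% and 9.88% of all genes. The summed level of the 12 markers, the log2 of the linear sum, was 13.24 to 13.31 in the empty vector lines and 13.48 to 13.64 in the Nkx2-1-shRNA lines. That sum is weighted to the most abundant transcripts, such as Sftpb (11.69 and 11.83) and Krt18 (11.08 and 11.52). The median difference of the list was −0.25, and Foxa1 (−0.85), Foxa2 (−0.44) and Abca3 (−0.40) were among those lower. Because Cdh2, Zeb2, Snai1 and Vim are also genes of stromal cells, markers of other cell types were read beside them. Of 13 fibroblast and smooth muscle markers, 9 were above the limit in at least 1 group and 2 were called higher, Des (0.61) and Cnn1 (limma adjusted p = 0.0497, lost without any 1 line, and below the limit in the control lines), while Dcn, Lum, Fap and Pdgfrb were below the limit in both groups. The summed level of that list was 8.23 to 8.37 in the empty vector lines and 8.37 to 8.50 in the Nkx2-1-shRNA lines, and that of 9 endothelial markers was 8.23 to 8.36 and 8.45 to 8.52. Among the latter, Flt1 rose by 0.80, Vwf rose by 0.41 (a call lost without any 1 line but Nkx2-1-shRNA line 2), Tek was at least 2.68-fold lower, and Pecam1, Cdh5, Kdr and Emcn were below the limit. For 8 leukocyte markers the sums were 7.64 to 7.92 and 7.68 to 7.74, with Ptprc below the limit and Csf1r called higher although its mean was below the limit in both groups. The shares called higher and lower were 15.4% and 0% of the fibroblast and smooth muscle markers. They were 22.2% and 11.1% of the endothelial and 12.5% and 0% of the leukocyte markers. The part of these markers in the differences of the 10 genes was not tested.

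Neighbouring genes on the chromosome, the 10 nearest above background on each side by RefSeq order, were read beside each member. Around Vim, 9 of 20 were lower and 3 higher, with a median of −0.28, including Cubn (−1.75) and Skida1 (−1.24) that fell and Nebl (1.11) that rose. The median was −0.051 with 20 on each side. Around Cdh2, 8 of 20 were higher and 1 lower (median 0.24, and 0.13 with 20 on each side), among them the desmosomal cadherin genes Dsg2, which rose by 1.05, and Dsg3, at least 15.7-fold higher and below background in the control lines. Around Zeb2 the median was 0.033, with 2 of 20 higher and 2 lower. Around Snai1 it was −0.13, with 1 of 20 higher and 4 lower. Over all 19938 genes, above background or not, 10.7% were higher and 9.88% lower. The neighbours were named after their values were seen.

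**Figure D4:**
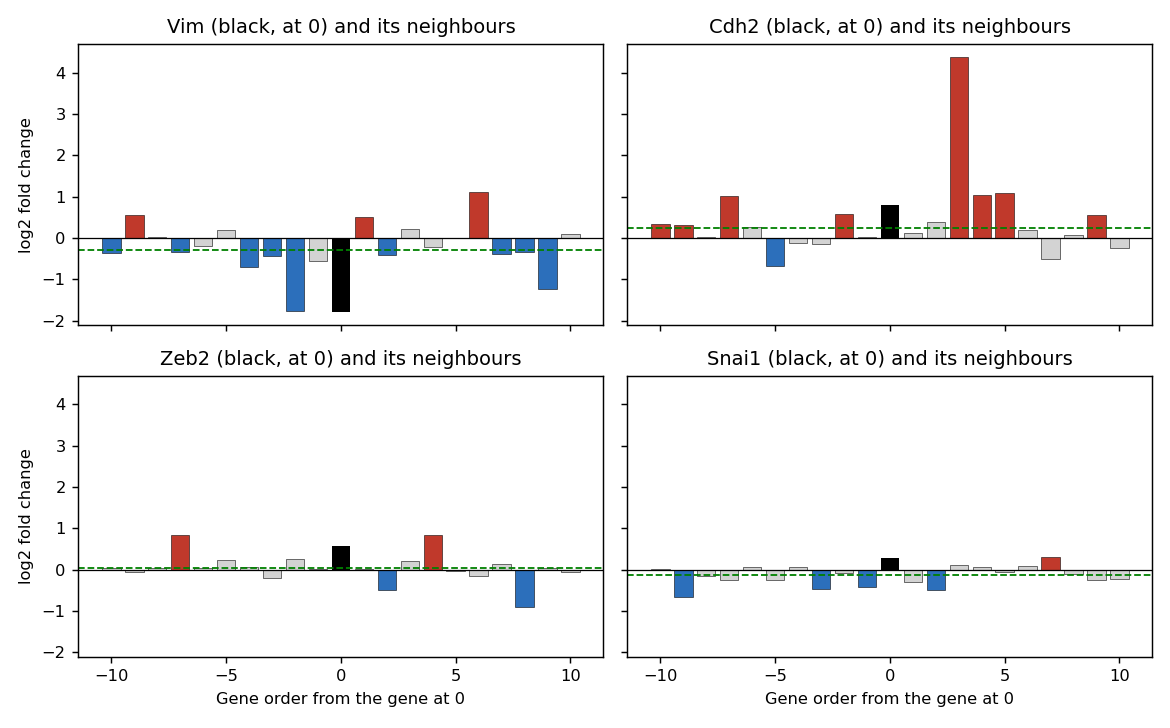
Log2 difference, Nkx2-1-shRNA minus empty vector (vertical axis), of the 10 nearest genes above background on each side of Vim, Cdh2, Zeb2 and Snai1, in RefSeq order (horizontal axis; the member in black at 0). Red bars were called higher, blue bars lower and grey bars not called, and the green dashed line is the neighbours' median.

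Over the 6 arrays, the genes whose levels followed Vim most closely among 13560 compared were Aldh4a1, Apip and Ivd (Pearson r = 0.9997, 0.999 and 0.999), all enzymes of amino acid metabolism, lower by 0.72, 0.82 and 1.06. For Cdh2 they were Tmf1, Ltbp4 and Atp10b (r = 0.999, 0.998 and 0.998), higher by 0.34, 0.69 and 1.90. With 2 groups of 3 arrays, r mainly records the difference between groups, and 207 genes had an r above 0.99 with Vim and 66 with Cdh2.

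The calls differed in how far they depended on the lines and the test. Cdh2 was called in all 15 alternatives (adjusted p 7.0e-05 to 0.0244) and Vim in 14 of 15 (7.4e-07 to 0.0508). Zeb2 was called in 9 of 15 (0.00236 to 0.104), Snai1 in 7 (0.0159 to 0.129) and Epcam in 6 (0.0236 to 0.196).

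**Figure D5:**
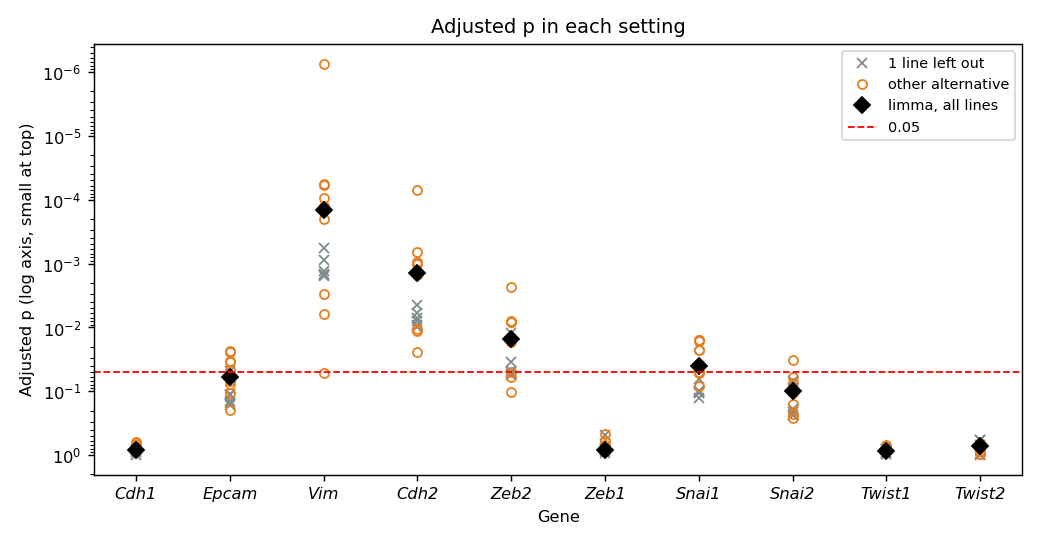
Adjusted p (vertical log axis, small values at the top) of each gene under every alternative; diamonds are the limma fit of all 6 lines, crosses the fits without 1 line and open circles the other alternatives, and the dashed line marks 0.05. Cdh2 stays on one side of the line, Vim crosses it once (0.0508), and Zeb2, Snai1 and Epcam have points on both sides.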

How the data were processed

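RNA of 6 MLE15 lines (3 Nkx2-1-shRNA, 3 empty vector) was hybridised to Mouse Gene 1.0 ST arrays (Affymetrix). The authors ran RMA in Expression Console 1.1, quantile normalization included, and the deposited log2 values were used unchanged. Quantile normalization draws the distributions of arrays together, so most of a shift common to all genes would be lost. Apart from that, changes of genes near the background limit may be understated, which was not measured here. Array medians of the deposited values still differed, 5.18 to 5.21 in the empty vector lines and 5.10 to 5.14 in the Nkx2-1-shRNA lines. Median centring raised the median difference of all transcript clusters by 0.080, and repeated quantile normalization raised it by 0.042. Gene symbols came from the platform annotation, which can be old; 21789 transcript clusters carried 1 symbol, and a gene with several was read by that with the highest mean. The comparison of groups used limma 3.58.1 under R 4.3.3 (lmFit, eBayes; 4 residual and 2.86 prior degrees of freedom), tested on simulated data. Intervals are at 95%. Adjusted p are Benjamini-Hochberg values.

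The members and lists were chosen with earlier results of these data known. Named were all members, in each list up to 5 called genes of largest absolute difference, the 3 genes most like Vim and Cdh2, Nkx2-1 and Sftpc; further genes were named after their values were seen. A fold against a group below background on every array compares the other group's mean with the background limit. The alternatives comprised array weights, a robust prior with trend, the methods' t-test and its form for unequal variances, repeated normalization, median centring, filters, a replicate block and leaving out each line. RefSeq windows and miRNAs (GRCm38.p6) were matched by symbol. The build of the array's own annotation is not given in the sources used here, so coordinates are given only for RefSeq sequences.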

Additional observations from a re-analysis of the deposited data

How the results depend on the processing

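With the t-test for unequal variances, the adjusted p was 0.0508 for Vim (−1.80), 0.104 for Zeb2 (0.58) and 0.0517 for Snai1 (0.28), leaving 1 member higher and 0 lower. The methods' t-test gave 0.0607 for Zeb2 (0.58). Epcam was called with a trended and robust prior (0.34, adjusted p = 0.0331), array weights (0.35, 0.0459), median centring (0.42, 0.0245), the filter on background (0.34, 0.0350) and transcript clusters of 1 symbol (0.34, 0.0236), which also called Snai2 (0.46, 0.0329) for 5 members higher. At an adjusted p under 0.01, 1 was higher. Without 1 line, log2 differences ran from −1.89 to −1.72 for Vim, 0.52 to 0.67 for Zeb2, 0.26 to 0.30 for Snai1, 0.26 to 0.40 for Epcam, −0.052 to 0.13 for Zeb1, −0.045 to 0.0082 for Twist1, −0.13 to −0.0038 for Twist2 and −0.051 to 6.0e-05 for Cdh1, with 1 to 3 members higher. Signs also turned for Twist1 under repeated quantile normalization (0.029) and for Twist1 (0.054), Twist2 (0.010) and Cdh1 (0.049) under median centring. At the study's threshold, members lower were 0 by either t-test, with the replicate block and without any 1 line (0 to 0), and 1 member was higher among transcript clusters of 1 symbol.

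Deviations of same-numbered lines from their group means correlated little (0.0575, 0.136 and −0.0342), and the main fit did not pair them. Such correlations over all transcript clusters cannot show that same-numbered lines shared no step of handling. With the replicate block, the adjusted p was 0.0507 for Zeb2 (0.58) and 0.0813 for Snai1 (0.28), with 1 member higher. With 5 neighbours on each side, the median was −0.17 for Snai1, −0.073 for Twist2 and 0.19 for Epcam, and with 20 it was −0.051 for Vim, 0.070 for Twist2 and 0.13 for Cdh2. Of the 63 called list genes, markers included, 42 were called without any 1 line and 24 by the test for unequal variances, which left 16 higher and 8 lower of all list genes. None of the 63 changed sign in any alternative. Snai2 and Zeb1 were below background on every array, so their differences set no fold. The cause of these differences was not tested. Averaging transcript clusters could not change a member, since each has 1.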
